A study of Mus musculus with 22 samples.

Results

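This account covers 9 mouse genes of intestinal iron and heme handling, Slc11a2, Cybrd1, Slc46a1, Slc40a1, Heph, Tfrc, Fth1, Hmox1 and Ireb2, of 18193 genes measured. The members were all probe sets carrying these symbols, and each gene was read from its brightest one on average: 1417584_at for Slc11a2, 1460604_at for Cybrd1, 1426715_s_at for Slc46a1, 1417061_at for Slc40a1, 1448696_at for Heph, 1452661_at for Tfrc, 1427021_s_at for Fth1, 1448239_at for Hmox1 and 1433527_at for Ireb2. All 9 were found, and no filter on low values was applied.

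Terminal ileum was taken from mice of the NOD strain, which is inbred and prone to autoimmune diabetes, and its RNA was hybridised to 22 arrays of 1 colour. The arrays held 3 control females, 3 STAT females, 3 PAT females, 5 control males, 3 STAT males and 5 PAT males. PAT denotes antibiotics in therapeutic doses given as pulses, and STAT denotes antibiotics below the therapeutic dose. All groups share the NOD background, and drugs, doses and ages were not given in the sources used here. Nothing in the labels ties each array to an animal of its own, so the p-values reflect only how these arrays scatter, and some of that scatter may be technical.

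Dietary iron enters the enterocyte as ferrous iron through the transporter Slc11a2 (DMT1) after reduction at the brush border, or inside heme, which Hmox1 opens to release the metal. Iron is then stored in ferritin or leaves through the basolateral exporter Slc40a1 (ferroportin), with oxidation by hephaestin. Iron regulatory proteins bind iron-responsive elements when the cell is poor in iron, protecting the mRNA of the transferrin receptor Tfrc and holding back translation of ferritin. Hypoxia-inducible factors also act on transcription of several of these genes in the gut.

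Values are log2 levels made by the authors with RMA, which removes background, puts the arrays on a common scale and merges each set's probes into 1 value. A difference of 1 on this scale is a 2-fold change, and changes of dim probe sets are understated. A gene was called when limma's p, adjusted over all 18193 genes by the Benjamini-Hochberg method, was under 0.05. Differences are given ± SE of the model and levels ± SD.

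Of 3 ileal markers, Fabp6 and Slc10a2 were high on every array, at 13.93 to 14.62 and 9.61 to 11.98, while the hormone gene Fgf15 ran from 5.11 to 11.36. Several arrays stood apart in other markers. Lct, the lactase of the proximal small intestine, was at 10.37 in PAT female 1 and at most 4.81 in the other 21 arrays, and the mean of 5 proximal markers was 7.72 in that array and at most 6.37 elsewhere. PAT female 1 also had the highest mean of 5 measured B cell markers, 6.54 against at most 5.07. The mean of 3 measured colon markers ran from 5.95 in PAT female 1 to 10.91 in STAT male 1, and was also above 10 in control males 4 and 5, at 10.11 and 10.55. STAT males 2 and 3 had the lowest means of 6 measured enterocyte markers, 12.43 and 12.60, and the largest differences between the 3′ and 5′ ends of beta-actin, 0.59 and 0.60 against 0.28 to 0.42 elsewhere.

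In PAT arrays the iron exporter Slc40a1 fell 2.48-fold and the transferrin receptor Tfrc rose 1.64-fold, averaged over the sexes, and the proton-coupled folate and heme transporter Slc46a1 fell 1.29-fold. Thus 1 of 9 members was higher and 2 were lower, while 6 were not called. Over all genes, limma called 11.0% in this comparison, 4.61% higher and 6.38% lower. The median difference was -0.12 for the members and -0.0048 for all genes. Some genes listed as markers of position along the gut were also called with PAT, while 4 of 5 proximal markers were not. Whether the sampled position differed, and its part in the members' results, was not tested. Of the 3 ileal markers, Fgf15 (2.16 ± 0.52) and Fabp6 (0.21 ± 0.07) were higher over both sexes, and the list mean was 10.77 to 11.25 in control females and 11.26 to 11.77 in PAT females, and 10.32 to 10.96 in control males and 11.05 to 12.39 in PAT males. Of 5 proximal markers Fabp1 was higher (1.62 ± 0.29), with list means of 5.65 to 6.18 over the controls and 5.86 to 7.72 over the PAT arrays. Of 3 measured colon markers 0 were called over both sexes, and 1, Aqp4, was lower in males (-0.50 ± 0.14), with list means of 6.37 to 10.55 in control males and 6.21 to 8.43 in PAT males. Of 6 measured enterocyte markers 0 were called with PAT. In PAT males 1 member was higher and 1 lower (9.02% of genes called, 2.34% higher and 6.68% lower), and in PAT females 1 was higher and 2 lower (3.35% called, 2.27% higher and 1.08% lower). Against controls, 0 of 9 members were called in STAT arrays, where limma called 0% of genes. The 95% intervals of Slc11a2 (-0.35 to -0.05) and Slc46a1 (-0.40 to -0.05) over both sexes excluded 0. At an unadjusted p under 0.05, 2 of 9 members and 13.1% of genes passed in STAT over both sexes. With array weights 3 members were called in STAT over both sexes, and over all genes the calls rose from 0 to 2288. The comparisons of females with males gave 0 called members, against 0.0550% of genes among controls (0.0275% higher and 0.0275% lower) and 0.00550% for the PAT effect (0.00550% higher).

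**Figure D1:**
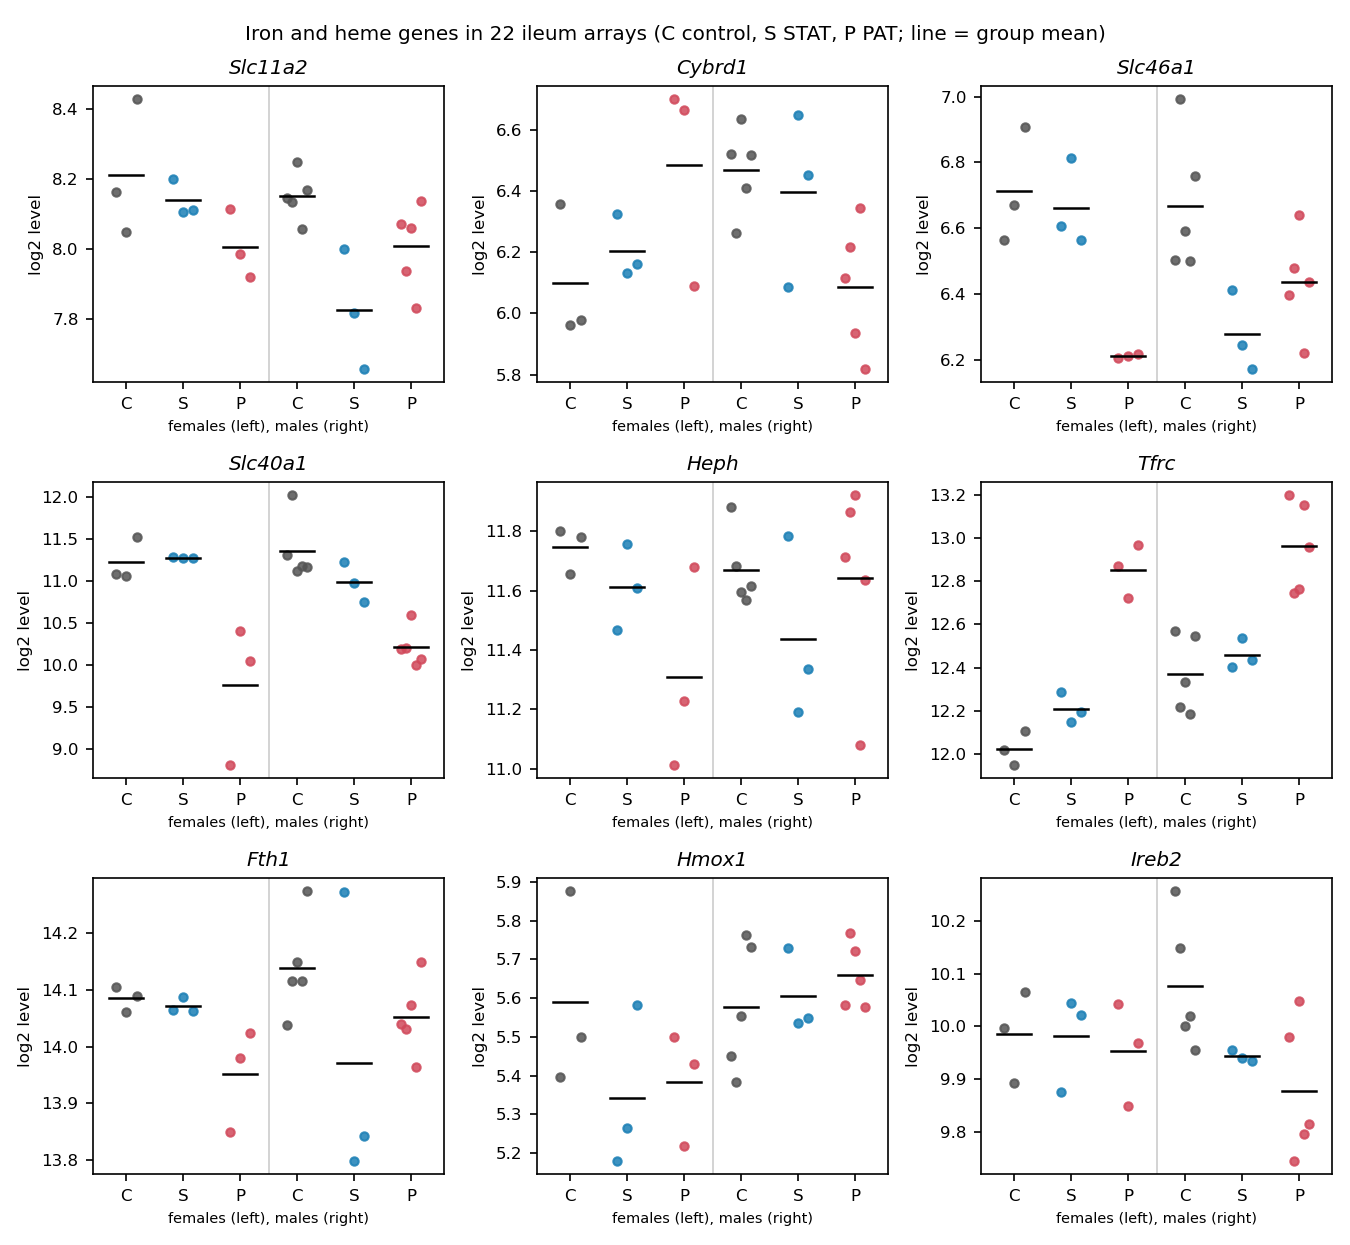
Log2 levels of the 9 genes (y axis, a separate range for each gene) on every array, by group on the x axis (C control, S STAT, P PAT; females left of the grey line, males right). Points are arrays and black lines are group means. All 8 PAT arrays lie below every other array for Slc40a1 and above every other array for Tfrc.

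Of the genes of iron entry, Slc11a2, the ferrous iron transporter of the brush border, did not pass the test in any comparison. Its levels were 8.16, 8.05 and 8.43 in control females, 8.20, 8.11 and 8.11 in STAT females and 8.12, 7.99 and 7.92 in PAT females. In males they were 8.15, 8.13, 8.25, 8.06 and 8.17 in controls, 8.0, 7.82 and 7.66 with STAT and 8.07, 7.94, 8.06, 7.83 and 8.14 with PAT. All 3 STAT males lay below all 5 control males, an arrangement found in 3.64% of all genes, and the other comparisons overlapped. The difference was -0.33 ± 0.09 in STAT males (adjusted p = 0.123) and -0.17 ± 0.07 with PAT over both sexes (adjusted p = 0.100).

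The 4 probe sets of Slc11a2 disagreed. The brightest one gave 0.02 for PAT minus STAT over both sexes, whereas probe sets 1426441_at and 1441709_at were 1.38-fold and 1.35-fold higher with PAT (adjusted p = 0.0122 and 0.0189, each probe set of the array tested on its own). Probe set 1452078_a_at was 1.15-fold higher and was not called (adjusted p = 0.163). Averaging the 4 turned the PAT minus control value over both sexes from -0.17 to 0.10, neither of them called. The transcript regions that the sets read were not examined, so no direction with PAT is given for the gene. In PAT females the other 3 sets had means above control (6.95 against 6.57, 7.48 against 7.13 and 7.48 against 7.34), whereas in STAT males all 4 sets had means below control, with differences of -0.27 to -0.42 and 0 of 4 called.

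Cybrd1, a brush border ferric reductase, had PAT differences of opposite sign in the sexes, without a call. Levels in control females were 6.36, 5.96 and 5.98 and in PAT females 6.70, 6.67 and 6.09. Control males were at 6.52, 6.26, 6.64, 6.41 and 6.52 and PAT males at 6.12, 6.22, 5.94, 6.34 and 5.82. PAT females 1 and 2 lay above every control female, most PAT males lay below every control male, and the groups overlapped in both sexes. The difference was 0.39 ± 0.17 in females (adjusted p = 0.192) and -0.38 ± 0.13 in males (adjusted p = 0.0692). With the Gapdh end difference as a covariate, an RNA quality measure given further on, the male difference was called (-0.52 ± 0.14, adjusted p = 0.0298). The test of the sex difference itself gave 0.77 ± 0.21 (unadjusted p = 0.00165, adjusted p = 0.115), and it was called only when PAT female 3 was left out (adjusted p = 0.0464). A dimmer probe set gave nearly equal means in each sex, 5.88 in control and 5.86 in PAT females, and 5.86 and 5.85 in males. Its ratio over both sexes was 1.01 (adjusted p = 0.954), an average in which opposite signs would cancel.

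Slc46a1 carries folate, and heme has been described as a further substrate. It stood at 6.56, 6.67 and 6.91 in control females, 6.61, 6.81 and 6.57 in STAT females and 6.21, 6.21 and 6.22 in PAT females. The PAT females had an SD of 0.0054 and lay below all other females, but 13.2% of genes did so against control females and 11.2% against STAT females. Males were at 6.50, 6.99, 6.59, 6.50 and 6.76 in controls, 6.41, 6.25 and 6.17 with STAT and 6.40, 6.48, 6.64, 6.22 and 6.44 with PAT, where PAT and control overlapped. With PAT it fell by 0.37 ± 0.08 over both sexes (adjusted p = 0.00534) and by 0.50 ± 0.13 in females (adjusted p = 0.0340), and in males the difference was -0.23 ± 0.10 (adjusted p = 0.142). The female call was lost in 5 of 6 runs that left out 1 array, with adjusted p = 0.106 without PAT female 1, whereas the call over both sexes was kept in 16 of 16. The second probe set had the same sign and was not called (1.22-fold lower, adjusted p = 0.0637).

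In STAT males all 3 Slc46a1 values lay below all 5 control males, as in 3.64% of genes, with a difference of -0.39 ± 0.11 (unadjusted p = 0.00239, adjusted p = 0.123). PAT and STAT comparisons share the control arrays. The PAT minus STAT difference was -0.15 ± 0.09 over both sexes (adjusted p = 0.352), with a 95% interval from -0.32 to 0.03.

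Slc40a1, the only known exporter of iron from animal cells, showed the largest change among the members. It was at 11.08, 11.06 and 11.53 in control females, 11.28, 11.28 and 11.27 in STAT females and 8.81, 10.40 and 10.05 in PAT females. Male levels were 11.31, 12.02, 11.12, 11.17 and 11.17 in controls, 11.23, 10.98 and 10.75 with STAT and 10.18, 10.20, 10.60, 10.00 and 10.07 with PAT. Every PAT array lay below every control and every STAT array, an arrangement found in 1.15% of genes against controls and 0.803% against STAT. The group means ran in the order control males (11.36), STAT females (11.28), control females (11.22), STAT males (10.98), PAT males (10.21) and PAT females (9.75). Neighbours among the first 3 groups overlapped in range, control females and STAT males overlapped as well, STAT males lay below all STAT females, and the 2 PAT groups overlapped.

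With PAT, Slc40a1 fell by 1.31 ± 0.18 over both sexes (adjusted p = 0.000105). It fell by 1.15 ± 0.22 in males (2.22-fold, adjusted p = 0.00323) and by 1.47 ± 0.29 in females (2.77-fold, adjusted p = 0.0110). The 2 sexes were not shown to differ (female minus male -0.32 ± 0.36, adjusted p = 0.643). The lowest array was PAT female 1, which stood apart in proximal markers, and without it the difference was -1.07 over both sexes (adjusted p = 6.98e-05) and -1.0 in females (adjusted p = 0.0414). The female call was lost without control female 3 (adjusted p = 0.0603) and when only control and PAT females entered the fit (adjusted p = 0.0757). With PAT female 1, STAT male 1 and control males 4 and 5 all left out, a choice made after seeing the data, the values were -1.13 over both sexes and -1.27 in males (adjusted p = 0.000132 and 0.000532), and the sex difference turned to 0.28 (adjusted p = 0.592).

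The second probe set of Slc40a1 behaved alike, 2.37-fold lower over both sexes (adjusted p = 0.000867), 2.11-fold in males and 2.67-fold in females, each of them called. Bulk tissue cannot tell fewer cells of a type from less RNA per cell, and Slc40a1 is also high in macrophages that recycle iron. Of 11 measured macrophage markers 0 were higher and 1 was lower with PAT over both sexes, the lipopolysaccharide co-receptor Cd14 (-0.59 ± 0.15, adjusted p = 0.0131). The mean level of the macrophage list was 7.84 to 8.07 in control females and 7.89 to 8.28 in PAT females, and 8.05 to 8.40 in control males and 7.96 to 8.21 in PAT males. Its part in the Slc40a1 result was not tested.

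With STAT the Slc40a1 difference from control was -0.16 ± 0.19 over both sexes (95% interval -0.56 to 0.24, adjusted p = 0.766). PAT was lower than STAT by a log2 difference of -1.15 ± 0.19 over both sexes (2.22-fold, adjusted p = 0.00102) and -1.52 ± 0.29 in females (adjusted p = 0.0135), but the male difference, -0.77 ± 0.26, was not called (adjusted p = 0.0617). In PAT minus STAT over both sexes 1 member was higher and 1 lower, against 5.88% of all genes called (2.89% higher and 2.98% lower). In males 1 was higher (8.71% of genes called, 3.47% higher and 5.24% lower), and in females 1 was higher and 1 lower (0.863% called, 0.528% higher and 0.335% lower).

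Heph, the copper oxidase that converts exported iron to the ferric form, did not pass the test in any comparison. Its levels were 11.80, 11.65 and 11.78 in control females, 11.47, 11.76 and 11.61 in STAT females and 11.01, 11.23 and 11.68 in PAT females. They were 11.88, 11.68, 11.60, 11.57 and 11.62 in control males, 11.78, 11.19 and 11.34 in STAT males and 11.71, 11.86, 11.92, 11.08 and 11.64 in PAT males. PAT females 1 and 2, PAT male 4 and STAT males 2 and 3 were the low arrays, and each group overlapped its controls. The PAT difference was -0.44 ± 0.19 in females (adjusted p = 0.183) and -0.03 ± 0.15 in males (95% interval -0.33 to 0.28). The liver and plasma relative Cp (ceruloplasmin) gave 0.14 ± 0.12 with PAT over both sexes (adjusted p = 0.540).

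**Figure D2:**
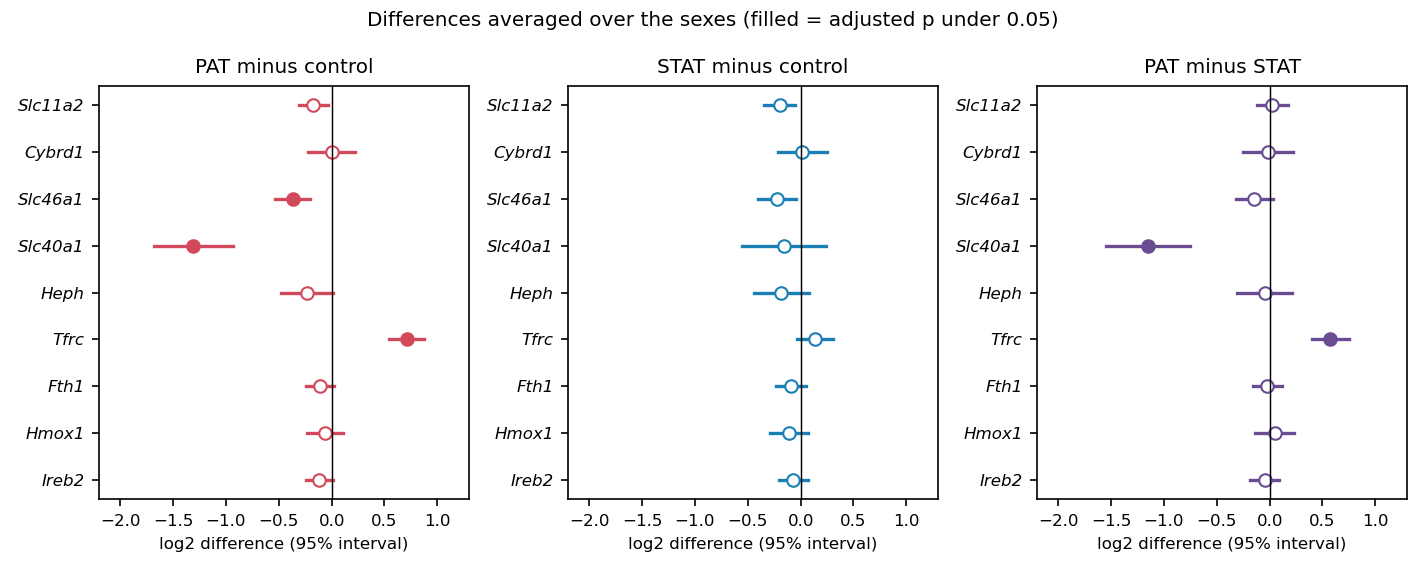
Log2 differences (x axis) of the 9 genes (y axis) for PAT minus control, STAT minus control and PAT minus STAT, each averaged over the sexes. Points are estimates, bars are 95% intervals and filled points were called. Slc40a1, Tfrc and Slc46a1 are filled in the first panel, 0 genes in the second, and Slc40a1 and Tfrc in the third.

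Tfrc brings transferrin-bound iron into dividing and iron-poor cells. Its levels were 12.02, 11.95 and 12.11 in control females, 12.29, 12.15 and 12.19 in STAT females and 12.87, 12.72 and 12.97 in PAT females. In males they were 12.57, 12.22, 12.33, 12.19 and 12.55 in controls, 12.40, 12.54 and 12.43 with STAT and 13.20, 12.74, 12.76, 13.15 and 12.96 with PAT. Every PAT array lay above every control and STAT array, an arrangement found in 0.544% of genes against controls and 0.726% against STAT. The order of the means was PAT males (12.96), PAT females (12.85), STAT males (12.46), control males (12.37), STAT females (12.21) and control females (12.03). The 2 PAT groups overlapped each other, as did STAT and control males, while all 3 STAT females lay above all 3 control females, as 4.79% of genes did.

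Tfrc rose with PAT by 0.71 ± 0.08 over both sexes (adjusted p = 1.34e-05), by 0.59 ± 0.10 in males (1.51-fold, adjusted p = 0.000723) and by 0.83 ± 0.12 in females (1.77-fold, adjusted p = 0.00257). The value was 0.71 over both sexes without PAT female 1. A difference between the sexes was not called for the PAT effect (0.24 ± 0.16, adjusted p = 0.414) or among controls (-0.34 ± 0.11, adjusted p = 0.213). Against STAT, Tfrc was higher with PAT by 0.57 ± 0.08 over both sexes (adjusted p = 0.000272), 0.50 ± 0.11 in males (adjusted p = 0.00918) and 0.64 ± 0.12 in females (adjusted p = 0.0161). The male call against STAT was lost without STAT male 3 (adjusted p = 0.0607), and the female one without PAT female 3 or STAT female 2. STAT minus control was 0.14 ± 0.08 (95% interval -0.04 to 0.31, adjusted p = 0.50).

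The mean of 7 measured cell division markers was 8.84 to 9.13 in control females and 9.24 to 9.72 in PAT females, and 8.84 to 9.30 in control males and 8.45 to 9.19 in PAT males. With PAT 0 of these 7 were called over both sexes or in males and 1, Bub1, was higher in females (0.78 ± 0.20, adjusted p = 0.0409). In females every PAT array was above every control in that mean, as in 14.7% of single genes, and in males the groups overlapped. Its part in the Tfrc result was not tested. Of 4 measured erythroid genes 0 were called with PAT in either sex or over both, and the hemoglobin gene Hba-a1 was at most 4.48 on all arrays.

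Tfrc had 6 probe sets, of which 3 were controls of the array maker for the 3′ end, middle and 5′ end of its transcript. All 6 were called higher with PAT over both sexes, from 1.42-fold at the 3′ control set to 1.99-fold at the 5′ control set. The 3′ minus 5′ difference of these control sets was 1.66 to 1.91 in control females and 0.39, 1.45 and 1.02 in PAT females, and 1.41 to 1.97 in control males and 1.37 to 1.77 in PAT males. The mean change with PAT was -0.48 over both sexes (two-sided exact permutation within sex, p = 0.0127, 5040 arrangements), -0.14 in males (exact permutation p = 0.246) and -0.82 in females (exact permutation p = 0.100, the smallest that 3 against 3 allow). With STAT it was 0.06 over both sexes (exact permutation p = 0.482). This measure was picked after its values were seen.

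**Figure D3:**
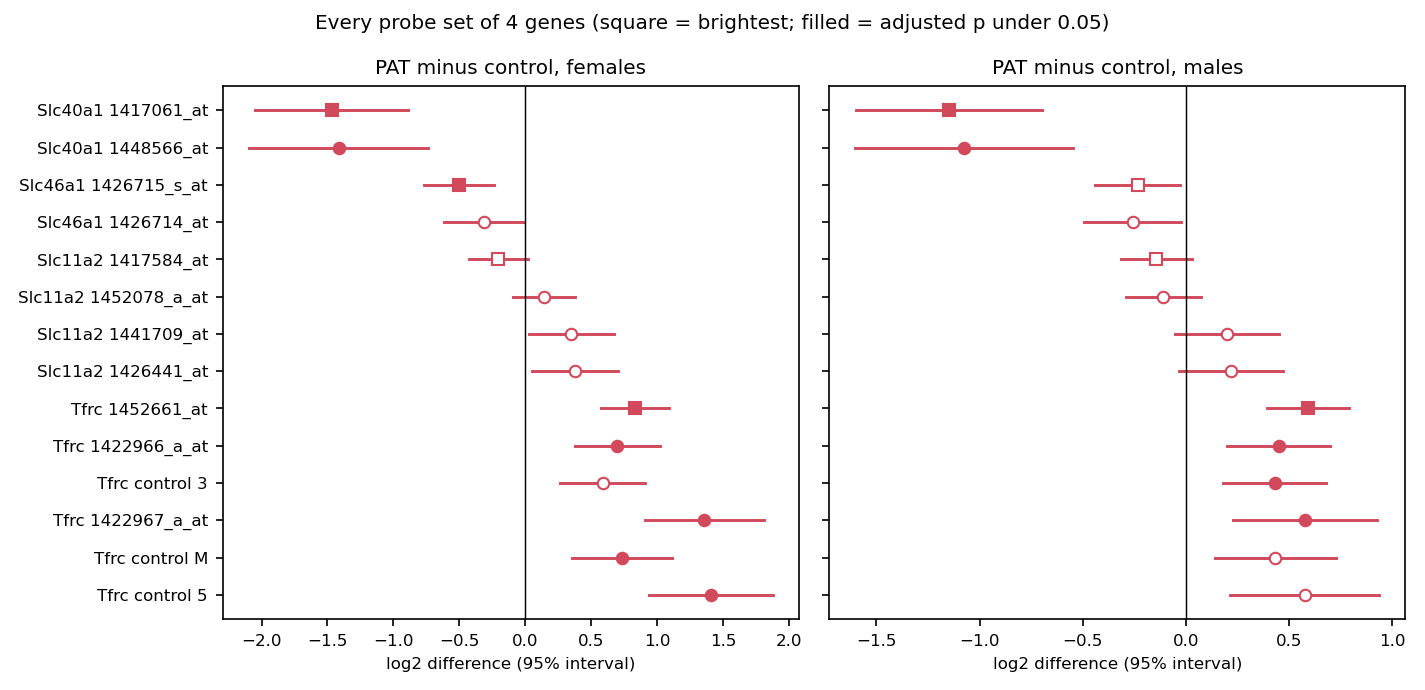
Log2 difference between PAT and control (x axis) for every probe set of Slc40a1, Slc46a1, Slc11a2 and Tfrc (y axis), in females and in males. Bars are 95% intervals, squares are the brightest set of each gene, filled symbols were called with each probe set tested on its own, and control 3, M and 5 are the array maker's Tfrc sets for the 3′ end, middle and 5′ end. Both Slc40a1 sets lie left of 0 and all 6 Tfrc sets right of 0 in both sexes, while the Slc11a2 sets lie on both sides.

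RefSeq promoter windows, 250 bases before to 50 after a start site on GRCm38.p6, were found for 5 of the 9 members, with 7 windows in all. Slc40a1, Slc11a2, Heph and Hmox1 had no window and were not searched. A window of Tfrc is shown because Tfrc is the member that rose, together with that of Slc46a1, a member that fell, both on the plus strand and cut 20 bases past the start site, at chr16:32608646-32608915 and chr11:78465451-78465720. Capitals mark ACGTG, the core of the hypoxia response element, searched on both strands.
Tfrc: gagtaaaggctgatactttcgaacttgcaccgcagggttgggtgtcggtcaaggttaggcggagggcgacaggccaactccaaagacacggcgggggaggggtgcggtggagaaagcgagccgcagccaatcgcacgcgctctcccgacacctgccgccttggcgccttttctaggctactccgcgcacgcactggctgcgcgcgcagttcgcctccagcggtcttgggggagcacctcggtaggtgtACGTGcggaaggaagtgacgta
Slc46a1: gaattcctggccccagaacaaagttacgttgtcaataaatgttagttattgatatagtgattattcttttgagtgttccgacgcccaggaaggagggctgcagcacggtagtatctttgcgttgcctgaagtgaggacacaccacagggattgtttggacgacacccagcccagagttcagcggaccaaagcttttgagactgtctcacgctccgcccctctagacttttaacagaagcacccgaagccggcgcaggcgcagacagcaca

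The Tfrc window held 1 match, starting at position -2 from the start site, and the overlapping second Tfrc window contained the same match. No match lay in the windows of Slc46a1, Cybrd1, Ireb2 or Fth1. Of 32851 RefSeq mouse promoters of the same length 19.6% held ACGTG. The longer CACGTG, which contains the core above, and TGACNNNGC, the core of the antioxidant response element, had 0 matches in the 7 windows and occurred in 7.15% and 12.4% of promoters. A match describes letters and not binding.

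Fth1, the heavy subunit of ferritin, was near 14 on all arrays. Female levels were 14.11, 14.06 and 14.09 in controls, 14.07, 14.09 and 14.06 with STAT and 13.85, 13.98 and 14.02 with PAT. Male levels were 14.04, 14.12, 14.15, 14.12 and 14.27 in controls, 14.27, 13.80 and 13.84 with STAT and 14.04, 14.03, 14.07, 13.96 and 14.15 with PAT. PAT females lay below all other females, as did 13.2% of genes against control females, while STAT males were split. The PAT difference was -0.11 ± 0.06 over both sexes (95% interval -0.24 to 0.02, adjusted p = 0.310). In STAT males it was -0.17 ± 0.09 (adjusted p = 0.387), and without STAT male 1 it was -0.32 (adjusted p = 0.0126). Without STAT male 1 the differences of Slc11a2 (-0.41) and Slc46a1 (-0.46) were also called in STAT males, resting on STAT males 2 and 3, whose enterocyte markers were lowest. Their Gapdh end differences were -0.04 and -0.08, against -0.25 in STAT male 1. With that covariate and all arrays, the STAT male differences were -0.02 ± 0.10 for Fth1, -0.34 ± 0.12 for Slc11a2 and -0.31 ± 0.14 for Slc46a1, none called. Over all genes, runs without 1 array gave 0 to 1973 calls in STAT males. The part of cell content or RNA quality was not tested.

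Hmox1, the inducible heme oxygenase, was dim at 5.18 to 5.88 over all arrays. Means were 5.59 ± 0.25 (n = 3), 5.34 ± 0.21 (n = 3) and 5.38 ± 0.15 (n = 3) in control, STAT and PAT females, and 5.58 ± 0.17 (n = 5), 5.60 ± 0.11 (n = 3) and 5.66 ± 0.08 (n = 5) in males. All groups overlapped within each sex. The PAT difference was -0.06 ± 0.08 over both sexes (95% interval -0.23 to 0.11). Its constitutive relative Hmox2 gave -0.03 ± 0.05 (adjusted p = 0.774).

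Ireb2 encodes iron regulatory protein 2, which is controlled mainly through protein breakdown. Its mean was 9.98 ± 0.09 (n = 3), 9.98 ± 0.09 (n = 3) and 9.95 ± 0.10 (n = 3) in control, STAT and PAT females. In males it was 10.08 ± 0.12 (n = 5), 9.94 ± 0.01 (n = 3) and 9.88 ± 0.13 (n = 5). The PAT difference was -0.20 ± 0.07 in males (adjusted p = 0.0979) and -0.03 ± 0.10 in females (adjusted p = 0.887), neither of them called. The relative Aco1, iron regulatory protein 1, gave 0.02 ± 0.10 with PAT over both sexes (adjusted p = 0.925).

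The ends of the Gapdh transcript were read as a measure of RNA quality. The 3′ minus 5′ difference of the Gapdh control sets was -0.24 ± 0.03 (n = 5) in control males and -0.16 ± 0.06 (n = 5) in PAT males, and -0.15 ± 0.06 (n = 3) and -0.07 ± 0.04 (n = 3) in females. With it as a covariate, Slc40a1 fell by 1.13 ± 0.21 (adjusted p = 0.00294) and Tfrc rose by 0.66 ± 0.09 (adjusted p = 0.000267) with PAT over both sexes. Slc46a1 was no longer called (-0.31 ± 0.10, adjusted p = 0.0765).

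Over the 22 arrays the levels of Slc40a1 were most like those of Reg3g (Pearson r = 0.95), Reg3b (0.92) and Casp1 (0.91), among 11451 genes with a mean level of at least 6. Reg3g and Reg3b encode antimicrobial lectins of the gut and Casp1 an inflammatory protease. For deviations from the group means, which leave out differences between groups, r was 0.82, 0.84 and 0.74. PAT female 1 lay furthest below its group mean for Slc40a1 (8.81 against 9.75) and control male 2 furthest above (12.02 against 11.36). These r values were not computed without them. Tfrc was most like Tcf23 (0.90), 1700017B05Rik (0.87) and Yrdc (0.84), with within-group r of 0.51, 0.39 and 0.26. Nearest to Slc46a1 was Pnp (0.90), a purine nucleoside phosphorylase, followed by Rwdd2b (0.88) and B4galt1 (0.88). Heph was nearest to Serpinb1a (0.93), Sat1 and Stxbp3, and Fth1 to H2-D1 (0.91), Papss2 and Chmp1a. The genes nearest to Slc11a2 were Nr2c1 (0.84), Slc34a2 and Tjap1, those nearest to Cybrd1 Trit1 (0.84), Mosmo and Rassf2, and those nearest to Ireb2 Rnf170 (0.87), Gpr89 and Gm31718. Hmox1 had the weakest likenesses, with Carmil3 (0.72), 4933427D06Rik (0.70) and Tnk2 (0.69). Slc40a1 and Tfrc had r = -0.76 with each other, and -0.27 within groups, a weaker opposition within groups than over all arrays. These points share arrays and groups.

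Of 84 other iron and heme genes, listed with earlier results of these data known, 74 were measured. With PAT over both sexes 8 were higher and 4 were lower, 16.2% of the 74 against 11.0% of all genes, with a median difference of -0.02. In PAT males 4 were higher and 10 lower, 18.9% of the 74 against 9.02% of all genes. In PAT females 2 were higher and 0 lower, 2.7% of the 74 against 3.35% of all genes. With STAT 0 were called in either direction over both sexes. PAT minus STAT gave 4 higher and 1 lower over both sexes, 6.76% of the 74 against 5.88% of all genes.

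Of 18 measured genes of iron regulation, 3 were higher and 1 lower with PAT over both sexes, a share of 22.2% against 11.0% of all genes. The 4 were Hif1a, Egln3, Epas1 and Vhl, which act in oxygen sensing, while Arnt (-0.0016 ± 0.07), Egln1 (0.05 ± 0.06) and Egln2 (-0.13 ± 0.05), which also do, were not called. Hif1a, the alpha subunit of hypoxia-inducible factor 1, was at 10.16 to 10.67 in 8 control arrays and 10.15 to 10.83 in 6 STAT arrays. It was at 10.86 to 11.66 in 8 PAT arrays, without overlap between PAT and the rest. Such a place above was found in 0.544% of genes against controls and 0.726% against STAT. Hif1a was called in all 3 PAT comparisons with controls. It rose by 0.76 ± 0.10 with PAT over both sexes (adjusted p = 4.38e-05), in males (adjusted p = 0.000518) and in females (adjusted p = 0.0125). The female call of Hif1a was lost without control female 3 (adjusted p = 0.0629). Egln3, a prolyl hydroxylase that marks the alpha subunits for breakdown, rose by 0.57 ± 0.11 (adjusted p = 0.00172). Epas1, the alpha subunit of hypoxia-inducible factor 2, rose by 0.34 ± 0.10, and Vhl, part of the ligase that degrades the alpha subunits, fell by 0.25 ± 0.07. Against STAT, Hif1a was higher with PAT by 0.64 and Egln3 by 0.86 over both sexes.

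Of 10 hypoxia-inducible factor targets, 4 were higher and 0 lower with PAT over both sexes, against 4.61% of all genes higher, with a median of 0.29. This list, like the others, was chosen with earlier results of these data known, so the share describes the list and tests nothing. The growth factor Vegfa rose by 0.87 ± 0.16 (adjusted p = 0.00153), the glucose transporter Slc2a1 by 0.97 ± 0.24 (adjusted p = 0.0114), the glycolytic regulator Pfkfb3 by 1.48 ± 0.38 and the carbonic anhydrase Car9 by 0.27 ± 0.07. In males 3 were higher (2.34% of all genes) and in females 1 (2.27% of all genes), Car9 (0.40 ± 0.11), whose female call was lost whichever of the 6 arrays was left out. With STAT 0 of the 10 were called over both sexes and the median was -0.11. PAT minus STAT over both sexes gave 3 higher (2.89% of all genes) and 0 lower, namely Vegfa (1.07 ± 0.17), Pfkfb3 (1.89 ± 0.40) and Adm (0.60 ± 0.16). In males 4 were higher and 1, the kinase gene Pdk1, was lower than with STAT (-0.36 ± 0.11, adjusted p = 0.0475), and in females 0 of 10 were called. The Pfkfb3 call against STAT was lost when STAT males 2 and 3 were left out.

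**Figure D4:**
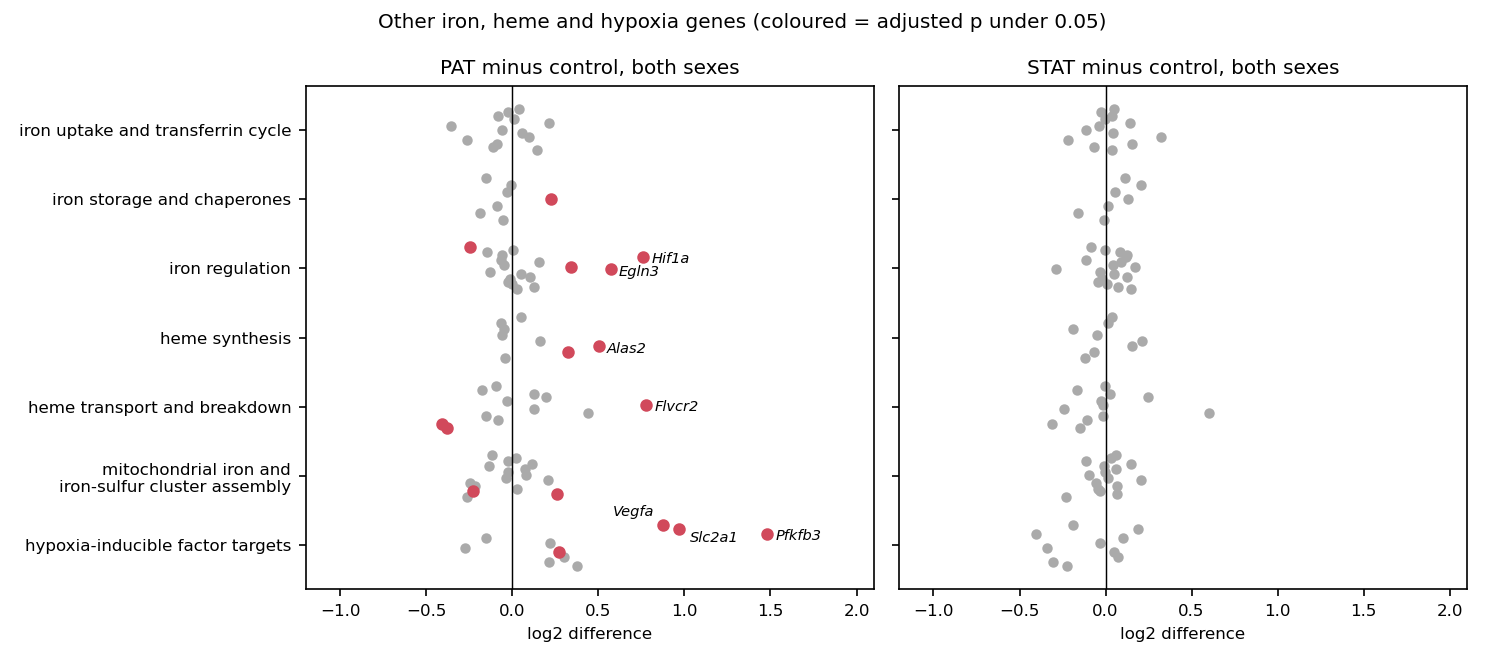
Log2 differences from control (x axis), averaged over the sexes, of the other iron and heme genes and of hypoxia-inducible factor targets, by gene list (y axis). Each point is a gene, coloured where called and named where called with a size above 0.5. The PAT panel holds coloured points and the STAT panel holds 0.

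Among heme genes, Flvcr2, a heme and choline transporter, rose with PAT by 0.78 ± 0.16 over both sexes (adjusted p = 0.00435). In females its rise of 1.02 ± 0.26 (adjusted p = 0.0357) was not called without PAT female 1, where it was 0.61. Alas1 and Alas2, which start heme synthesis in most cells and in erythroid cells, rose by 0.33 ± 0.09 and 0.50 ± 0.14. Abcg2, a porphyrin exporter, and Abcb6, a porphyrin transporter, fell by 0.41 ± 0.11 and 0.38 ± 0.10. Of storage and chaperone genes, Pcbp1, which delivers iron to ferritin, rose by 0.22 ± 0.05 (adjusted p = 0.00482), but not with the Gapdh covariate (adjusted p = 0.0704). Of the iron-sulfur cluster genes, Bola3 rose by 0.26 ± 0.08 and Ciao1 fell by 0.23 ± 0.06. None of 13 measured genes of iron uptake and the transferrin cycle was called over both sexes, among them Tfr2 (0.04 ± 0.08) and Slc11a1 (0.06 ± 0.10), relatives of Tfrc and Slc11a2. In males 2 of the 13 were lower, the hemochromatosis gene Hfe (-0.30 ± 0.09) and the metal transporter Slc39a8 (-0.55 ± 0.15). In males the chaperone relative Pcbp4 (-0.43 ± 0.11) and Ciao1 (-0.34 ± 0.08) were lower. The Pcbp4 call was lost in 3 of 10 runs without 1 array, with its probe sets averaged and with only the groups compared. The Ciao1 call in males was lost with the Gapdh covariate (adjusted p = 0.0583).

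Of 8 measured NRF2 targets, genes of the antioxidant response to which Hmox1 and Fth1 are also known to respond, 1 was higher (Me1, 0.35 ± 0.10) and 1 lower (Gclm, -0.40 ± 0.10) with PAT over both sexes. Over all genes 4.61% were higher and 6.38% lower. In females Me1 (0.68 ± 0.15) and Nqo1 (0.56 ± 0.15) were higher, against 2.27% of all genes. However, Me1 was not called without PAT female 1 and Nqo1 was not called whichever of the 6 arrays was left out. In males 0 of 8 were called, against 9.02% of all genes. Epas1, Vhl, Alas1, Alas2, Abcg2, Abcb6, Bola3, Ciao1, Pfkfb3, Car9, Me1 and Gclm in the PAT comparison over both sexes, Hfe and Slc39a8 in PAT males, Adm and Pdk1 against STAT, Arnt, Egln1, Egln2, Cd14, Bub1, Aqp4 and the other position markers were named after their values were seen.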

How the data were processed

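The authors deposited RMA values on the log2 scale, 1 for each probe set and array; RMA and affy are named, with no version stated, per the submitters' processing notes. The table held 45101 probe sets. Names came from the platform annotation: 34945 had 1 gene symbol, 932 several and 9160 none, and only the first kind was used. The brightest probe set stood for a gene.

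Limma 3.58.1 in R 4.3.3 fitted 1 mean per group (treatment by sex) to all 22 arrays, with 16 residual degrees of freedom, and all tests are two-sided. Adjusted p-values come from that model. Column medians lay between 5.68 and 5.79, correlations between arrays between 0.984 and 0.997, and 0 of 231 pairs were identical. The number of arrays limits the precision. A simulation of 18193 genes used independent normal noise and changed 100 genes by 0.5 and 100 by 1 on the log2 scale. Of those changed by 0.5, 82.0% were recovered for PAT minus control over both sexes, and 36.0% in females. Far more genes were called in the real comparison over both sexes, so these shares need not hold for the real data.

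The members and lists were chosen with earlier results of these data known. Named beside members were their relatives and, per comparison, up to 6 called pathway genes with the smallest p. For likeness, the 3 genes with the highest r were named for each member. Alternatives were another probe set rule, filter, normalization, covariate or weights, and arrays left out.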

Additional observations from a re-analysis of the deposited data

Results flagged for a closer look

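Slc40a1 in control male 2 lay far from the other control males, at 12.02 against 11.12 to 11.31, a gap that was 0.785 of the group's range. Only groups of 5 arrays could be examined in this way, 18 groups in all, of which 1 stood out, and chance gives about 1 in 20. Its second probe set was also highest in a control male, at 10.51.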

How the results depend on the processing

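No paired analysis was possible because the labels give no replicate numbers that groups share. With PAT over both sexes Slc40a1 and Tfrc were called in 16 of 16 runs without 1 array and in 12 of 12 other settings, and Slc46a1 in 16 of 16 and 11 of 12. Leaving out 1 array in turn gave 1 to 3 called members for PAT minus control in females and 0 to 3 for STAT minus control in males. It gave 0 to 1 and 0 to 2 for PAT minus STAT in males and females, and 0 to 1 for the sex difference of the PAT effect. Over all 18193 genes these runs gave, in the same order, 123 to 751, 0 to 1973, 254 to 2847, 29 to 118 and 0 to 59 calls. With only the groups compared, 1 member was called for PAT minus control in females and 0 for PAT minus STAT in females, against 532 and 43 genes. Array weights gave 3 for STAT minus control over both sexes and 3 in males, and 6 for PAT minus STAT in males. With weights, 2288, 4069 and 4741 of all 18193 genes were called in these comparisons. PAT minus STAT in males had 2 with all probe sets of a gene averaged, 2 with a mean of at least 6, 2 with the Gapdh covariate and 0 with the beta-actin covariate. Over all genes tested these settings gave 1273, 1877, 1224 and 199 calls. Leaving out STAT males 2 and 3, or these and PAT female 1, a set added after seeing the data, kept 1 STAT male, so no calls are given for PAT minus STAT in males. Without the 4 arrays apart in colon or proximal markers, also added later, 3 were called for STAT minus control in males, 3 for PAT minus STAT in males and 1 in females. Calls over all genes are not given here for that setting, so these counts have no share beside them. What caused the changes between settings was not tested.

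Over all genes, PAT minus control over both sexes had 1999 calls, and 756 with the Gapdh covariate. In males the 1641 calls ran from 833 to 2089 without 1 array, with 1050 under the Gapdh covariate and 951 with only the groups compared. In females the 610 ran from 123 to 751, with 142 and, under array weights, 1524. STAT minus control rose from 0 to at most 1053 over both sexes and 1973 in males without 1 array, and to 2288 and 4069 with weights. PAT minus STAT over both sexes had 1069, 516 with only the groups compared, 2631 with weights and up to 1676 without 1 array. In males the 1585 ran from 254 to 2847, with 199 under the beta-actin covariate, 153 with only the groups compared and 4741 with weights. In females the 157 ran from 29 to 118, with 460, 43 and 640. Repeated quantile normalization moved the split of higher to lower calls from 426 and 1215 to 592 and 803 for PAT minus control in males, from 413 and 197 to 340 and 372 in females, and from 96 and 61 to 109 and 130 for PAT minus STAT in females.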
